A study of Homo sapiens with 6 samples.

Results

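The clustered histone genes of replication encode the linker histone H1 and the core histones H2A, H2B, H3 and H4 that package newly made DNA. They were taken as every gene row whose official symbol is H1-1 to H1-6 or has the form H2AC, H2BC, H3C or H4C followed by a number. This gave 69 of the 19240 genes counted: 6 of H1, 17 of H2A, 18 of H2B, 13 of H3 and 15 of H4. By the RefSeq gene table, 55 of them lie on chromosome 6, 13 on chromosome 1 and 1 on chromosome 12. The cells were A549, an established human lung carcinoma line, and the labels name no genetic change made to them. They were kept for 48 h without glucose (3 libraries) or with 25 mM glucose (3 libraries), in a study of glucose-independent growth and the mitochondrial enzyme PCK2. First-strand cDNA was primed with oligo-dT, so each library counts the 3′ ends of RNAs that hold a run of A. Nothing in the labels ties the libraries of a group to separate cultures. The p-values below therefore reflect the variation among these 6 libraries alone, which may be technical.

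Replication-dependent histone messages are the one class of animal mRNA that normally ends without a poly(A) tail. They are made in S phase, are cut just after a short stem-loop that binds the protein SLBP, and are degraded when DNA synthesis stops. Many of these genes also hold a poly(A) signal beyond the stem-loop, and H2BC5, H2BC12 and H2BC21 are known to give polyadenylated messages as well, above all in cells that have left the cycle. A library primed with oligo-dT is therefore expected to see only a small part of the histone messages, and which part can differ between genes.

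Gene counts per library were 11086416, 12782563 and 14060313 without glucose and 6701004, 10323290 and 14259943 with glucose. Reads with more than 1 alignment, 18.4% to 22.2% of a library, are not in the gene counts. The epithelial keratin genes KRT8 and KRT18 were abundant and fell, at 920 ± 148 and 736 ± 16.4 CPM without glucose, against 2090 ± 234 and 1369 ± 149 CPM with glucose (SD, n = 3 each). CPM values are counts relative to the scaled library size. KRT19, another epithelial keratin, had 24.6 ± 2.93 CPM without glucose and 34.8 ± 8.17 CPM with glucose and did not pass. The epithelial gene EPCAM had 3.09 ± 0.838 CPM without glucose and 4.10 ± 1.54 CPM with glucose and did not pass. CDH1, also epithelial, went the other way, with 7.87 ± 0.329 CPM without glucose and 5.93 ± 1.18 CPM with glucose. Its groups did not overlap, but it did not pass. CDKN2A, which A549 cells have lost, and the leukocyte, endothelial and fibroblast genes CD3E, VWF and DCN had no count in any library. The 8 markers of those cell types summed to 34.2, 43.5 and 30.5 CPM without glucose and 27.7, 29.5 and 27.1 CPM with glucose, and their part in the results was not tested. Of these markers CD68 rose, with 31.0 ± 7.38 CPM without glucose and 15.1 ± 0.858 CPM with glucose, and COL1A1 fell, with 4.87 ± 0.599 CPM without glucose and 12.5 ± 1.70 CPM with glucose. In these bulk libraries fewer cells in S phase and less histone RNA per cell cannot be told apart.

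The members held few reads. They took 0.00759%, 0.00944% and 0.00925% of the gene counts without glucose, and 0.0227%, 0.0162% and 0.0138% with glucose. Of the 69 members 21 had no count in any library, 21 had 1 to 9 counts over all 6 libraries, and 27 had 10 or more. A count was seen for 20, 22 and 25 members in the libraries without glucose, and for 27, 32 and 40 members in those with glucose. H2BC12 alone held 30.9% of all 8511 member counts, H4C3 24.2%, H1-2 15.8% and H2BC5 12.1%. These 4 genes are thus most of what was measured of the histone clusters.

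The transcript models show how differently the members can end, and 3′ ends are shown here because a read depends on a run of A for the primer to pair with. A stem-loop, searched as 6 bases that begin with GG and end with T, a loop of 4 bases that begins with T, and 6 bases that pair with the first 6, stood in a GENCODE release 29 transcript of 30 members. The same search found it in 0.2827% of all protein-coding transcripts. For 32 members every model ends at the stop codon, and such models say nothing about the 3′ end. The stem-loops of the members tested below that have one, with the 16 bases of stem and loop in capitals, were nearly alike.
H2AC6: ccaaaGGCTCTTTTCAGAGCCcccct
H2BC5: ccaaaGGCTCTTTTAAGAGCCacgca
H2BC7: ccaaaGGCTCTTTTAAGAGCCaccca
H2BC21: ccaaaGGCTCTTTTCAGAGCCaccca
H3C6: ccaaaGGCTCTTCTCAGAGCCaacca

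The last 30 bases of the annotated models differ between members, and 4 are shown for the presence of a poly(A) signal or of runs of A. Those of H2BC5, H2BC21 and H3C6 end downstream of a poly(A) signal (AATAAA, in capitals), and the models of H2BC21 and H3C6 run 1729 and 1862 bases past the stem-loop. The H2BC5 end shown is of a model of 789 bases without a stem-loop by this search. The H2BC5 stem-loop above is of another model, of 496 bases. The model of H4C3 is 435 bases long, has no stem-loop by this search, and ends in a stretch with runs of A (runs of 5 or more in capitals).
H2BC5: taattAATAAAatctgcggagaattgtaaa
H2BC21: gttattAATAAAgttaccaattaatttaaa
H3C6: agatgtaaAATAAAagattactgaacagaa
H4C3: tgagaacttcAAAAAAcAAAAAcAAAAAAA
The H4C3 end holds 21 A in 30 bases, where the median protein-coding transcript holds 10 and 1.364% hold 20 or more. H3C6 also has a model that stops 5 bases after the stem-loop. Whether the reads of H4C3 were primed in its A-rich end was not tested. H2BC8, whose model ends in 30 A, had no count in any library.

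Without glucose the summed level of the clustered histone genes was 1.92-fold lower, and H4C3 made up the larger part of that gap. The sums were 79.7, 92.3 and 95.8 CPM without glucose, against 215, 161 and 138 CPM with glucose. Every library without glucose lay below every library with glucose. With H4C3 left out the sums were 71.7, 76.9 and 84.1 CPM without glucose and 122, 100.1 and 115 CPM with glucose, 1.45-fold lower and again without overlap. These sums are descriptions and were not tested.

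By histone type, H1, H2A and H4 were lower without glucose in every library, while H2B and H3 overlapped between the groups. H1 summed to 12.4, 13.2 and 17.2 CPM without glucose, against 27.7, 29.4 and 37.5 CPM with glucose. H2A summed to 5.59, 4.74 and 4.56 CPM without glucose, against 9.60, 13.9 and 16.0 CPM with glucose. H4 summed to 9.10, 17.6 and 13.1 CPM without glucose, against 95.9, 61.7 and 24.0 CPM with glucose. The H4 gap was that of 1 gene. Without H4C3 the remaining 14 H4 genes summed to 1.14, 2.22 and 1.40 CPM without glucose and 2.82, 0.864 and 1.27 CPM with glucose, and the groups overlapped. H2B summed to 49.4, 54.4 and 57.8 CPM without glucose, against 79.8, 53.9 and 57.3 CPM with glucose, with replicate 1 with glucose, the library with the fewest counts, above the rest. H3 summed to 3.22, 2.37 and 3.17 CPM without glucose, against 2.12, 2.11 and 3.09 CPM with glucose. The H3 sum joins opposite values, since its main gene H3C6 was higher without glucose and the other 12 H3 genes had 0, 3 and 3 counts without glucose against 11, 15 and 23 counts with glucose. Those 12 genes were set apart after the values of H3C6 were seen, so their counts are a description.

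**Figure D1:**
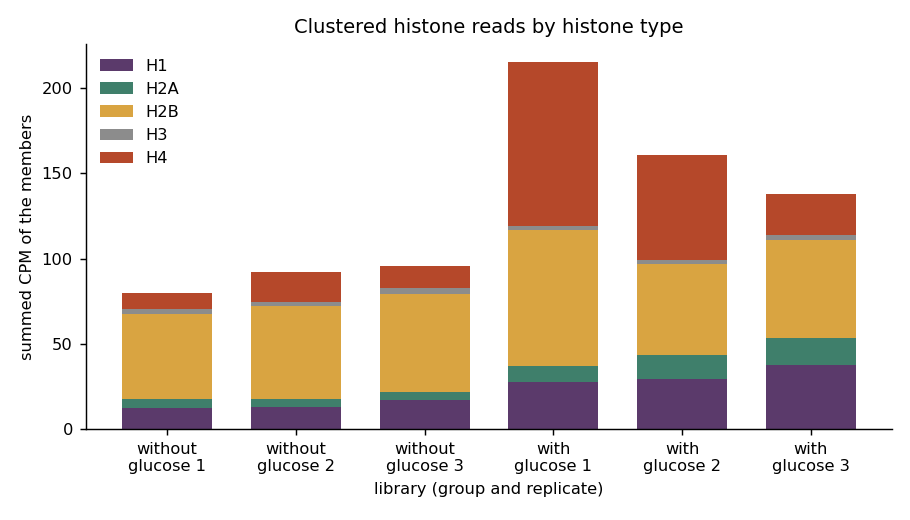
Summed CPM of the 69 clustered histone genes in each library, stacked by histone type, with the libraries without glucose on the left. The sums are 79.7 to 95.8 CPM without glucose and 138 to 215 CPM with glucose, and the H4 share is tallest in replicates 1 and 2 with glucose.

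Of the 69 members 12 could be tested, those that passed a filter at about 0.838 CPM in at least 3 libraries. Of these 12, 5 fell without glucose, 1 rose and 6 did not pass (quasi-likelihood test of edgeR, Benjamini-Hochberg adjusted p under 0.05). Over all 11886 genes tested 22.3% passed, 10.7% lower and 11.6% higher without glucose. The groups did not overlap for 5 members that were lower and 2 that were higher, where over all genes the shares were 19.4% and 21.0%. The median log2 fold change of the 12 was −0.75, beside 0.02 over all genes tested. H1-3 and H1-4 passed the filter only through the libraries with glucose, so they had to be lower to be tested at all, and the counts over the 12 are given as a description.

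**Figure D2:**
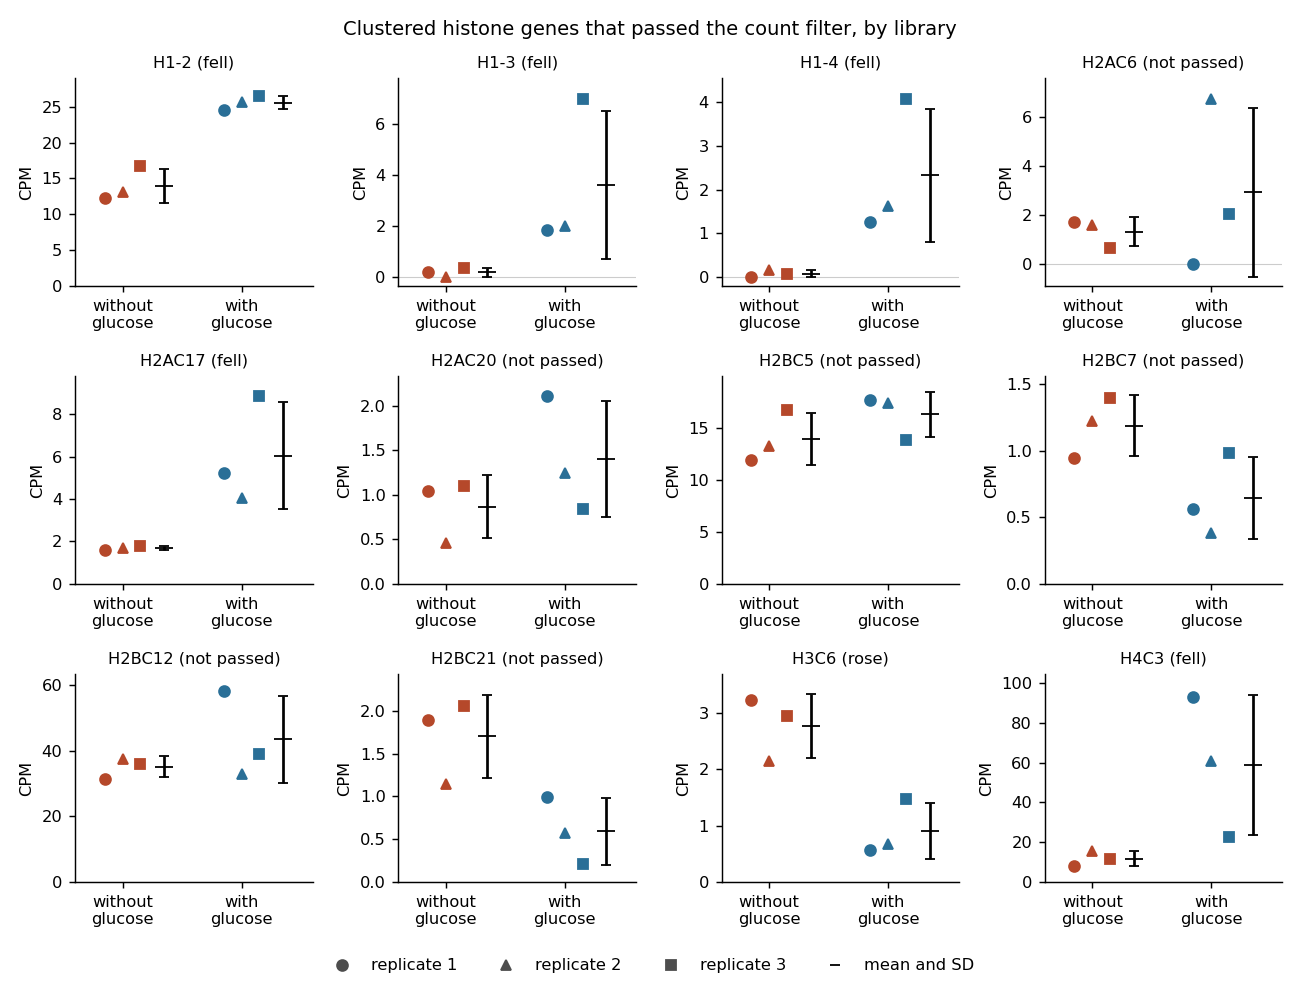
CPM of the 12 tested members in each library, on a linear scale that differs between panels, with libraries without glucose on the left of each panel and the mean and SD (n = 3) beside them. H1-2, H1-3, H1-4, H2AC17 and H4C3 lie lower in all libraries without glucose, H3C6 and H2BC21 lie higher, and the other 5 overlap.

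Of the linker histone genes H1-2 fell, and H1-3 and H1-4 were near 0 counts without glucose. H1 binds the DNA that enters and leaves the nucleosome and compacts the fibre. H1-2 (Entrez 3006) had 12.2, 13.1 and 16.7 CPM without glucose, against 24.6, 25.7 and 26.5 CPM with glucose. The libraries within each group were close and the groups far apart. H1-2 fell by 0.87 ± 0.21 (SE) on the log2 scale (adjusted p = 0.01135). H1-3 (Entrez 3007) had 2, 0 and 5 counts without glucose, against 13, 21 and 99 counts with glucose. H1-4 (Entrez 3008) had 0, 2 and 1 counts without glucose, against 9, 17 and 58 counts with glucose. Both were near 0 in each library without glucose and highest in replicate 3 with glucose. Pooled over the libraries, H1-3 was 22.3-fold lower without glucose and H1-4 32.8-fold lower, given as a description. Their fitted log2 fold changes were −4.23 ± 0.83 and −4.73 ± 0.86 (adjusted p = 0.003841 and 0.002381). Both passed the count filter only through the libraries with glucose, which fixed their direction in that test. With no count filter the edgeR adjusted p was 0.000386 for H1-3 and 0.000619 for H1-4. That fit also called H2AC12 lower (adjusted p = 0.0172), whose counts came almost all from replicate 3 with glucose. Leaving out replicate 3 with glucose gave H1-3 a log2 fold change of −3.29, and leaving out replicate 3 of the other group gave −5.27. For H1-4 it was −4.02 on leaving out replicate 3 with glucose, and −5.54 on leaving out replicate 2 of the other group. The remaining linker genes of the rule, H1-1, H1-5 and H1-6, had no count in any library.

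The promoters of the 3 H1 genes with counts are shown because they carry the known promoter element of H1 genes. Given are the 150 bases before each start site (RefSeq, GRCh38.p14, 5′ to 3′ on the gene's strand), with matches on either strand in capitals to AAACACA (the H1 box), CCAAT and TATAAA.
H1-2, chr6:26056471-26056620, minus strand: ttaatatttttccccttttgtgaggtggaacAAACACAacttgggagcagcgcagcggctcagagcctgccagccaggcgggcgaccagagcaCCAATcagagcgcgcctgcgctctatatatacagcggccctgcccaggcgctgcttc
H1-3, chr6:26234988-26235137, minus strand: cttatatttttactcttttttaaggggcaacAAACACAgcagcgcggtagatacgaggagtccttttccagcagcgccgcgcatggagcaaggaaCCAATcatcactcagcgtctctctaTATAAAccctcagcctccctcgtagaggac
H1-4, chr6:26156179-26156328, plus strand: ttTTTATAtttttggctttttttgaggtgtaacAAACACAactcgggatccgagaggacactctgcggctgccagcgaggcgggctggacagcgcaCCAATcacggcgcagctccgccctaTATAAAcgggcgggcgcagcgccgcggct
In the window of 250 bases before to 50 after the start, AAACACA was found in all 6 H1 promoters, against 5.644% of the 35116 promoter entries of all genes. That includes H1-1, H1-5 and H1-6, which had no count. CCAAT was in 6 of 6 H1 promoters and in 34.6% of all entries, and TATAAA in 3 of 6 and in 11.5%. These are matches of letters and no measure of binding.

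Among the H2A genes, H2AC17 fell and the 2 other tested genes did not pass. H2A pairs with H2B in the nucleosome core. H2AC17 (Entrez 8336) had 17, 22 and 24 counts without glucose, against 37, 42 and 126 counts with glucose. These were 1.61, 1.68 and 1.77 CPM without glucose and 5.22, 4.03 and 8.86 CPM with glucose, so the libraries without glucose were nearly level and all below the others. The log2 fold change was −1.85 ± 0.39, with an adjusted p of 0.005475. Of the 50-base words in its model, which ends at the stop codon, 86.3% also occur in another gene. Reads that align to both are not in the table. H2AC6 had 18, 21 and 9 counts without glucose, against 0, 70 and 29 counts with glucose. Its libraries with glucose ran from none to the highest of all, and its log2 fold change of −1.18 ± 0.86 did not pass (adjusted p = 0.3458). That value was 0.19 without replicate 2 with glucose. H2AC20 had 11, 6 and 15 counts without glucose, against 15, 13 and 12 counts with glucose, and did not pass either (−0.64 ± 0.61, adjusted p = 0.4789). Of the untested H2A genes, H2AC12 had 0 counts in each library without glucose, against 0, 1 and 45 counts with glucose, a signal of replicate 3 almost alone. H2AC25 had 11, 8 and 11 counts without glucose, against 4, 11 and 4 counts with glucose, and H2AC11 had 1, 5 and 3 against 2, 6 and 2 counts.

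No H2B gene passed, although H2B held the most reads. H2BC12 (Entrez 85236) had 31.5, 37.6 and 36.1 CPM without glucose, against 58.3, 33.0 and 39.1 CPM with glucose. Replicate 1 with glucose stood above the other 5 libraries, which lay close together. The log2 fold change was −0.31 ± 0.23, with an adjusted p of 0.3685. H2BC12 shares 74.1% of the 50-base words of its model, which ends at the stop codon, with another gene. H2BC5 (Entrez 3017) had 11.8, 13.2 and 16.6 CPM without glucose, against 17.7, 17.4 and 13.8 CPM with glucose, and the groups overlapped (−0.22 ± 0.23, adjusted p = 0.519). H2BC21 (Entrez 8349) had 20, 15 and 28 counts without glucose, against 7, 6 and 3 counts with glucose. Each library without glucose was above each with glucose, yet the log2 fold change of 1.63 ± 0.65 did not pass (adjusted p = 0.08783). H2BC7 had 10, 16 and 19 counts without glucose, against 4, 4 and 14 counts with glucose, with overlapping levels (0.83 ± 0.60, adjusted p = 0.3413). The share of all member counts taken by H2BC12 was 39.5%, 40.8% and 37.7% without glucose and 27.1%, 20.5% and 28.3% with glucose.

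Of the H2B genes below the filter, 5 had 10 or more counts in all. H2BC15 had 17, 10 and 6 counts without glucose and 0, 6 and 13 counts with glucose. H2BC10 had 15, 2 and 12 counts without glucose and 0, 7 and 0 counts with glucose. These leaned toward the cells without glucose, each with a library that overlapped the other group. H2BC11 had no count without glucose and 8, 2 and 7 counts with glucose. H2BC18 had 0, 0 and 1 counts without glucose and 4, 0 and 11 counts with glucose, and H2BC14 had 1, 0 and 0 against 1, 3 and 5 counts.

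The octamer ATTTGCAT, the known site of the factor Oct-1 in H2B promoters, was in 15 of 20 H2B entries and 11 of 16 H2A entries, against 1.774% of all promoter entries. It was in 0 of 6 H1, 1 of 13 H3 and 0 of 13 H4 entries. These entries are not independent. The H3 entry with the octamer, of H3C4, has the same coordinates as the entry of H2AC7. Entries of neighbouring genes can overlap, and the octamer of H2AC17 also lies in the window of H2BC17. H2BC5 and H2BC12 are each entered more than once. A promoter entry was found for 64 of the 69 members. The H2A gene that fell and the H2B gene with the most reads are shown because both carry it, with the octamer, CCAAT and TATAAA in capitals on either strand.
H2AC17, chr6:27893186-27893335, minus strand: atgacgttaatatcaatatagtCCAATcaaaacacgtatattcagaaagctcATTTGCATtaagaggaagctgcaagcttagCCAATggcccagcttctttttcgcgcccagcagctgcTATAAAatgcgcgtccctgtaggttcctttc
H2BC12, chr6:27146859-27147008, minus strand: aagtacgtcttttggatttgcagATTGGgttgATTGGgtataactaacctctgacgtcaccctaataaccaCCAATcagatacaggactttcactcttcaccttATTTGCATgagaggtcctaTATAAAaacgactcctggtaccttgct
CCAAT stood in all 16 H2A, all 20 H2B and all 13 H3 entries but in 3 of 13 H4 entries. Matching letters were thus shared by a gene that fell and a gene that did not pass.

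H3C6, which encodes a canonical H3, was the only member called higher without glucose, and the call was lost under most alternatives. H3C6 (Entrez 8353) had 34, 28 and 40 counts without glucose, against 4, 7 and 21 counts with glucose. These were 3.22, 2.14 and 2.94 CPM without glucose and 0.565, 0.672 and 1.48 CPM with glucose, and the groups did not overlap. The log2 fold change was 1.53 ± 0.51, with an adjusted p of 0.04829. H3C6 passed the count filter with 3 libraries without glucose over the filter level and 1 with glucose. The call was lost with library totals in place of scaling factors (adjusted p = 0.05261) and on leaving out any of the 5 libraries other than replicate 3 with glucose (adjusted p from 0.06686 to 0.138). Without replicate 3 with glucose the log2 fold change was 2.12. The H3 genes below the filter with 10 or more counts showed the other direction. H3C12 had no count without glucose and 11, 1 and 1 counts with glucose. H3C2 had no count without glucose and 0, 10 and 2 counts with glucose. H3C10 had 0, 1 and 2 counts without glucose and 0, 0 and 8 counts with glucose. Each of these rested mainly on 1 library with glucose, a different one each time.

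H4C3 had the largest difference in CPM of the 12 members. H4 pairs with H3 at the centre of the nucleosome, and most H4 genes encode the same protein. H4C3 (Entrez 8364) had 84, 201 and 159 counts without glucose, against 659, 634 and 324 counts with glucose. These were 7.96, 15.4 and 11.7 CPM without glucose and 93.1, 60.9 and 22.8 CPM with glucose. The groups did not overlap, but the libraries with glucose differed widely among themselves, with replicate 3 far below replicate 1. The log2 fold change was −2.32 ± 0.42, 5.0-fold lower without glucose, with an adjusted p of 0.002364. H4C3 took 9.99%, 16.7% and 12.2% of the member counts without glucose and 43.3%, 37.8% and 16.5% with glucose. H4C8 had 8, 15 and 9 counts without glucose and 8, 4 and 0 counts with glucose. H4C16 had 4, 5 and 5 counts without glucose and 3, 2 and 3 with glucose. H4C4 had 0, 8 and 2 counts without glucose and 3, 1 and 2 with glucose. H4C1 had no count without glucose and 3, 0 and 8 counts with glucose. No other H4 gene reached 10 counts.

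The members below the filter are described by the libraries in which they were seen. Of the 57 members not tested, 36 had a count, of which 19 had counts only with glucose, 1 only without glucose and 16 in both groups. The same shares over all genes below the filter were not computed, so these numbers are no result about the members. The 1 member seen only without glucose was H4C5, with 3 counts in replicate 3. Together the 57 had 59, 60 and 58 counts without glucose, against 63, 70 and 147 counts with glucose, or 5.59, 4.59 and 4.27 CPM against 8.90, 6.72 and 10.3 CPM. Replicate 3 with glucose, the deepest library, had counts for 28 of them, 7 of which were seen nowhere else. Replicate 1 with glucose, the library with the fewest counts, had counts for 16 of them, and the libraries without glucose for 9, 11 and 13.

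Many members that share much of their sequence with another annotated gene were not seen. That gene may be a copy elsewhere or may overlap the same locus, which was not told apart. Of the 15 members that share at least 50% of their 50-base words with another gene, 9 had no count, against 12 of the 54 below that share. H2BC12, which shares 74.1%, had the most counts of all members. The shares were taken over whole annotated models, which for 32 of the 69 members end at the stop codon. For those members they do not describe the 3′ ends beyond it. Of the 9 that share 97% or more, 8 had no count, and H4C12 had 2. Those 8 were H2AC7, H2AC18, H2AC19, H3C4, H3C14, H3C15, H4C14 and H4C15. A count of 0 for these does not show that they were silent, since reads that align to several genes are not in the table.

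The members were also split by the reach of their annotated models, a division chosen after their values were seen. For 30 members a model runs more than 50 bases past the stem-loop or has AATAAA or ATTAAA in its last 50 bases, and 39 members have only other models. The first 30 summed to 23.6, 23.0 and 26.9 CPM without glucose, against 24.3, 29.3 and 22.6 CPM with glucose, and the groups overlapped. The other 39 summed to 56.1, 69.3 and 68.9 CPM without glucose, against 191, 132 and 115 CPM with glucose. The groups were apart, 2.25-fold lower without glucose, and still apart without H4C3 (48.1, 53.9 and 57.2 CPM against 97.7, 70.9 and 92.6 CPM). Among the members below the filter, the 25 with a longer model had 42, 48 and 43 counts without glucose and 32, 37 and 58 with glucose, and the 32 others had 17, 12 and 15 counts without glucose and 31, 33 and 89 with glucose.

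**Figure D3:**
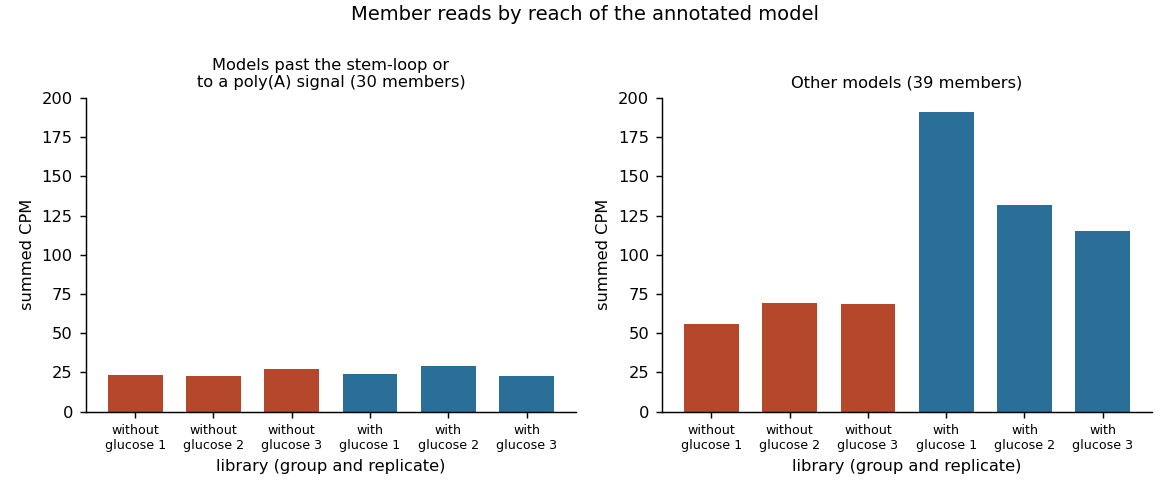
Summed CPM per library for the 30 members with a model that reaches past the stem-loop or to a poly(A) signal and for the 39 other members, on the same scale, with libraries without glucose on the left. The first sums lie between 22.6 and 29.3 CPM in all 6 libraries, and the second between 56.1 and 69.3 CPM without glucose and between 115 and 191 CPM with glucose.

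Of the 12 tested members, 5 have a longer model (H2AC6, H2BC5, H2BC7, H2BC21 and H3C6), and 3 of these had a positive log2 fold change. All 7 others had a negative one: H1-2, H1-3, H1-4, H2AC17, H2AC20, H2BC12 and H4C3. H1-3 and H1-4 passed the count filter only through the libraries with glucose, which fixed their sign. H2BC7, H2BC21 and H3C6 each had 3 libraries without glucose over the filter level and 1 with glucose. Signs in this contrast thus depend in part on the count filter and are given as a description. The models of 5 of the 7 (H1-2, H1-3, H2AC17, H2AC20 and H2BC12) end at the stop codon, so the split follows the annotation and not measured 3′ ends. H2BC12, known to give a polyadenylated message, stands among the 7.

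**Figure D4:**
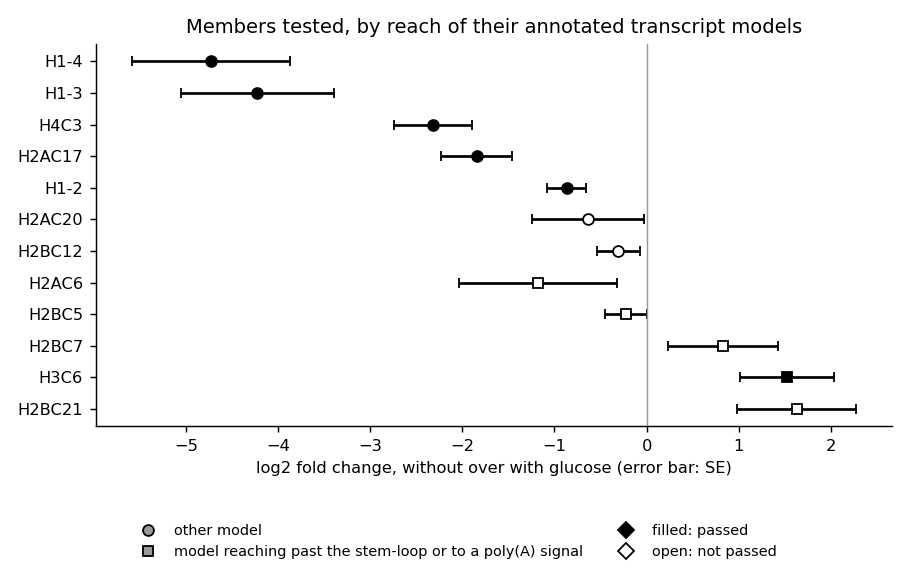
Log2 fold change (without over with glucose) and SE of the 12 tested members, with members of other models as circles in the upper rows and members of longer models as squares below, filled where the test passed. The 7 circles all lie left of 0, from −4.73 to −0.31, and the squares run from −1.18 to 1.63.

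Replacement histone genes have polyadenylated messages and are made outside S phase as well. Of the 10 tested and reported here, 5 fell and 5 did not pass, beside 10.7% called lower over all genes. Their median log2 fold change was −0.68. H2AX, the variant that is phosphorylated at DNA breaks and whose gene can give both stem-loop and polyadenylated messages, had 72.8 ± 9.40 CPM without glucose and 278 ± 54.7 CPM with glucose. It fell with a log2 fold change of −1.93 ± 0.22 (adjusted p = 0.0001606). H2AZ1, a variant found at promoters, fell with −1.24 ± 0.21 (adjusted p = 0.001488). CENPA, the H3 of centromeres, fell with −0.90 ± 0.19 (adjusted p = 0.006333). H2AZ2 and MACROH2A1 fell with −0.85 and −0.73. H3-3A and H3-3B, which encode the replacement H3, had −0.50 and −0.08 and did not pass.

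Most genes that make, process or degrade histone messages did not pass. Among 19 tested, 2 fell, 0 rose and 17 passed in neither direction, with a median log2 fold change of −0.23. The 2 of 19 are close to the 10.7% called lower over all genes. No gene rose by edgeR or DESeq2, and 2 were higher at an unadjusted p of 0.05 by each. SRRT, which links the cap of the message to its processing, had 81.3 ± 14.8 CPM without glucose and 281 ± 108 CPM with glucose and fell with −1.79 ± 0.29 (adjusted p = 0.001266). UPF1, a helicase that acts in histone message decay, fell with −0.76 ± 0.22 (adjusted p = 0.02815). SLBP, the stem-loop binding protein, had 60.8, 88.2 and 49.0 CPM without glucose, against 98.0, 107 and 113 CPM with glucose. Its groups were apart but the log2 fold change of −0.69 ± 0.23 missed the threshold (adjusted p = 0.05348). NPAT, the activator of histone transcription in S phase, and HINFP, the factor of H4 promoters, had 0.11 and 0.40 and did not pass. ZNF473, of the U7 processing complex, had 0.85 ± 0.29 (adjusted p = 0.0521). The number that fell was 4 with library totals, with no count filter and with DESeq2, and 1 on leaving out replicate 1 or 2 with glucose or replicate 3 of the other group.

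Histone chaperones and importers, which escort histones into the nucleus and onto DNA, fell or did not pass. There were 12 that fell among 23 tested, 0 that rose and 11 that did not pass, beside 10.7% lower over all genes. The median log2 fold change was −0.91. By edgeR 1 gene was higher at an unadjusted p of 0.05, ATRX, and DESeq2 called 0 higher. On leaving out replicate 2 of the cells without glucose, ATRX rose. CHAF1A, the large subunit of the assembly factor CAF-1, had 36.0 ± 5.06 CPM without glucose and 165 ± 18.9 CPM with glucose, and fell with −2.20 ± 0.21 (adjusted p = 6.454e-05). ASF1B, the chaperone of dividing cells, had 3.72 ± 0.993 CPM without glucose and 24.2 ± 5.16 CPM with glucose, and fell with −2.70 ± 0.28 (adjusted p = 8.866e-05). Its paralog ASF1A had 0.33 ± 0.22 and did not pass. HJURP, the chaperone of CENPA, fell with −1.90 ± 0.21 (adjusted p = 0.0001286). NASP, which holds the free pool of H3 and H4, fell with −1.04 ± 0.24 (adjusted p = 0.01001). CHAF1B, DNAJC9, TONSL, MMS22L, SSRP1, CABIN1, HIRA and DAXX also fell, with log2 fold changes of −1.76 to −0.66. Among chaperones that act apart from replication, HIRA, CABIN1 and DAXX fell, and UBN1 and ATRX did not pass (−0.15 and 0.73). Whether replication has a part in these values was not tested.

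Genes of S phase were lower in the same libraries. Of 18 tested 17 fell, and CCNE1 did not pass (adjusted p = 0.05161), beside 10.7% called lower over all genes. The median of the 18 was −1.73 on the log2 scale. Their summed levels were 902, 945 and 929 CPM without glucose, against 3148, 2966 and 3007 CPM with glucose. TK1, the thymidine kinase of S phase, had 26.0 ± 1.15 CPM without glucose and 126 ± 1.16 CPM with glucose. The clustered histone sums with glucose were 215, 161 and 138 CPM, and 122, 100.1 and 115 CPM with H4C3 left out. Whether S phase genes have a part in the histone values was not tested. RRM2, a subunit of ribonucleotide reductase, had 27.7 ± 2.78 CPM without glucose and 124 ± 8.49 CPM with glucose. MCM4, of the replicative helicase, had 61.0 ± 4.48 CPM without glucose and 270 ± 42.3 CPM with glucose.

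**Figure D5:**
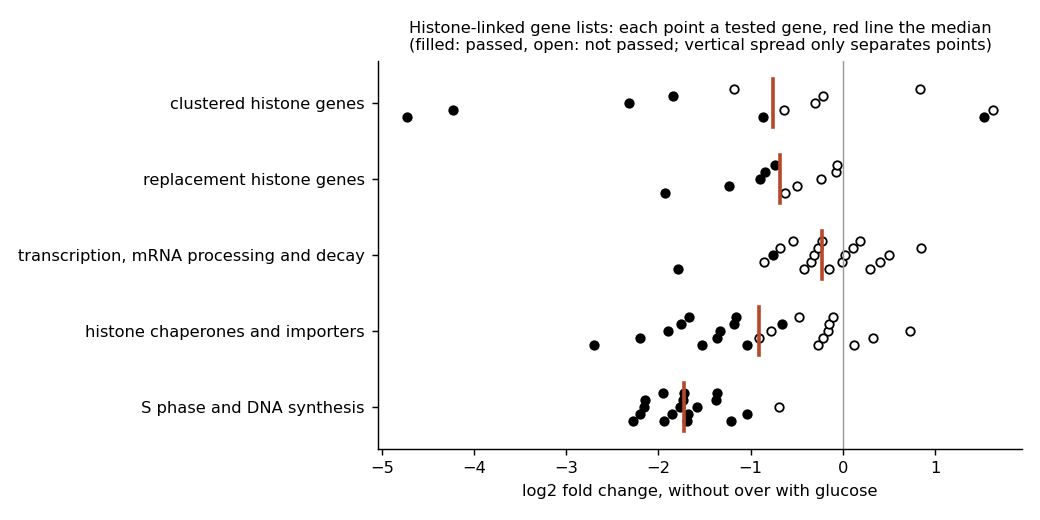
Log2 fold change (without over with glucose) of each tested gene in the clustered histone genes and 4 other lists, with filled points for genes that passed, open points for genes that did not and a line at the median. Medians are −0.75 for clustered histone genes, −0.68 for replacement histones, −0.23 for transcription, processing and decay, −0.91 for chaperones and −1.73 for S phase.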

How the data were processed

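The values deposited by the authors are raw read counts per gene. The tools were STAR and HTSeq and the build hg19, per the submitters' processing notes. For versions, gene annotation, strand setting and read length, the sources used here give nothing. Per the labels' protocols, cDNA was primed with barcoded oligo-dT, pooled by Actb signal and amplified for 12 PCR cycles. No molecular identifiers are mentioned, so counts may include PCR copies of the same molecule. Entrez identifiers were matched to symbols through a RefSeq table of GRCh38.p14 (19178 of 19240). The other 62 took 0.0072% of the counts. The HTSeq summary lines were left out of library sizes and of every test: reads in no gene were 32.8% to 36.5% of a library, and multiple alignments 18.4% to 22.2%.

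The groups were compared by edgeR 4.0.16 (quasi-likelihood F test, two-sided, TMM scaling, filterByExpr at a minimum count of 10, Benjamini-Hochberg adjustment over the 11886 genes tested, adjusted p under 0.05), after a test on simulated data. An SE is the log2 fold change over the root of its F statistic, and is approximate. CPM values were computed here from the TMM-scaled library sizes, in which 1 count is worth 0.0703 to 0.141 CPM. Ratios of pooled counts are descriptions and have no interval. Alternatives were library totals, no count filter, a replicate block, DESeq2 1.42.0 and leaving out each library. Libraries of a group differed by more than sampling noise (chi-square per degree of freedom 22.1 to 57.3), so none were merged in any test.

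The members and the gene lists were chosen with earlier results of these data known. Named are all tested members, untested members with 10 or more counts in all, and, from each other list, the 3 genes of smallest p. One replacement histone gene is not reported here and was left out of the counts and median of its list. Other genes named were chosen after their values were seen. The list of RNAs without a poly(A) tail (19 symbols) matched no gene row and was not analysed here. H3-4, a histone gene outside the rule, had no count in any library. Stem-loops and 3′ ends come from GENCODE release 29 transcripts, and promoters from RefSeq (GRCh38.p14). The files' own build is hg19, so the only coordinates given are those of the printed promoter windows, in GRCh38.p14.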

Additional observations from a re-analysis of the deposited data

How the results depend on the processing

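The 5 members that fell (H1-2, H1-3, H1-4, H2AC17 and H4C3) passed under all 10 alternatives, with highest adjusted p-values of 0.04207, 0.03235, 0.02115, 0.04672 and 0.01541 (edgeR or DESeq2). H1-3 and H1-4 passed the count filter only through the libraries with glucose. Apart from the fit with no count filter, the alternatives therefore fixed the direction of these 2 genes. With no count filter 48 members were tested and 7 fell, with H2AC12 and H2BC11 added. The count of members that rose was 1, H3C6, and was 0 with library totals and 0 with the replicate block (2 members higher at an unadjusted p of 0.05 in each). Leaving out each library in turn gave 0 to 1. H3C6 passed in 3 of 10 alternatives: no count filter, DESeq2 and without replicate 3 with glucose. Of the 12 members' values under the alternatives, 112 kept their direction and their side of the threshold and 7, all of H3C6, lost the call. H2AC6, which did not pass (log2 fold change −1.18), had −1.71 to 0.19 when each library was left out, positive only without replicate 2 with glucose. Over all alternatives the members' median log2 fold change lay between −0.89 and −0.58.

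Over all genes, 1895 passed with the replicate block, 3122 with DESeq2 and 1651 to 2524 when 1 library was left out, against 2652. The processing and decay genes that fell numbered 4 with library totals, 4 with no count filter, 4 with DESeq2, 1 with the replicate block and 1 to 3 when 1 library was left out, against 2. The cause of these changes was not tested. Same-numbered libraries did not deviate together (correlations −0.265, −0.121 and 0.036), so the numbers are not taken as pairs. Chaperones that fell numbered 8 to 14 and replacement histones called 4 to 5 over the alternatives.

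Of the 69 members 57 did not pass the count filter, and 21 of these had no count in any library.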
